A study of Mus musculus with 8 samples.

Results

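The interferon response genes are the genes that cells switch on when type I or type II interferon binds its receptor, and 49 of them were followed here in the hypothalamus of peroxisome-deficient and wild type mice. The list is a set of gene symbols of the pathway. It was chosen with earlier results of these data known, so no test was made of the list as a whole. Of the 49 genes, 47 had a probe set of their own on the array, out of 18194 genes measured in this way. Isg15 was present only on a probe set that also reads the gene model Gm9706, and Ifi44 had no probe set paired with it. The members were sorted by role into 4 transcription factors, 5 sensors of nucleic acid, 15 antiviral effectors, 7 GTPases, 6 genes of the ISG15 pathway and TRIM ubiquitin ligases, 4 genes of the PARP family and its partner, and 8 other interferon-induced genes.

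Hypothalamus RNA of 8 mice at the age of 10 weeks, of which 4 were wild type and 4 were Nestin-Pex5-/-, was measured on 1 Affymetrix mouse genome array per animal to see which transcripts differ when the brain lacks functional peroxisomes. Pex5 encodes the receptor that imports proteins into the peroxisome. In Nestin-Pex5-/- mice both floxed copies of Pex5 are removed by a Cre recombinase under the Nestin promoter, which is active in the progenitors of neurons, astrocytes and oligodendrocytes, and the strain was bred into a Swiss Webster background. Microglia, which descend from yolk sac progenitors, do not belong to that lineage, so the deletion is one of neural cells and not of the whole tissue. The wild type mice are replicates 1 to 4 and the Nestin-Pex5-/- mice replicates 7 to 10, as their labels number them.

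Interferons are secreted proteins that warn neighbouring cells of infection. Type I interferons act through the receptor pair Ifnar1 and Ifnar2 and the kinases Jak1 and Tyk2, which lead to the assembly of the complex ISGF3, in which Irf9 binds the DNA element ISRE and Stat2 activates transcription. Interferon gamma acts through Ifngr1 and Ifngr2 and a separate element named GAS, and many of the induced genes carry one or both elements. In the brain, microglia and astrocytes are the cells best known to show this response, although neurons can show it too.

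Values are RMA intensities on a log2 scale, so that a difference of 1 is a 2-fold change. The array medians lay between 6.70 and 6.84. Of 9 measured genes of hypothalamic neurons, the brightest were the neuropeptide genes Avp, Oxt, Hcrt and Pmch. These read from 10.05 to 12.83 over the 8 arrays, whereas the dimmest, Ghrh, read from 6.11 to 6.67, below the array medians. Between the genotypes, limma called 0 of the 9 different (1 lower at an unadjusted p under 0.05). In Nestin-Pex5-/- 8 of the 9 were lower on average, with a median log2 difference of -0.22. The Pex5 probe set read 8.66 on average in wild type and 8.67 in Nestin-Pex5-/-. Where its probes lie relative to the removed part of the gene was not examined, so this value does not check the genotype. Wild type replicate 4 stood apart from the other wild type arrays. Ttr, the main secreted protein of the choroid plexus, read 14.59, 14.47, 14.48 and 10.51 in wild type replicates 1 to 4, and 37 of the 47 members were highest in replicate 4 among the wild type arrays, where 52.2% of all genes had this replicate above the other 3. The number of arrays limits the precision of every value. The limma p-values set the difference between genotypes against a spread between mice that is moderated over all genes.

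The interferon response genes were higher in the peroxisome-deficient hypothalamus. Of the 47 members, 29 rose in Nestin-Pex5-/- (limma, adjusted p under 0.05 over all genes) and 0 fell, while 3.98% of all genes rose and 0.791% fell. At an unadjusted p under 0.05 limma called 38 members higher and 0 lower, and 8.85% of all genes higher. With each gene's own variance in place of limma's moderated one, adjusted in the same way, 16 members were higher and 0 lower, and 2.68% of all genes were higher. The median member was 0.72 higher on the log2 scale, where the median of all genes was -0.033. In 34 members every Nestin-Pex5-/- array was above every wild type array, which 6.63% of all genes showed. Among the 29, 12 were at least 2-fold higher, against 1.17% of all genes. Without wild type replicate 4 the count was 33 and the median difference 0.79, and the share of all genes that were higher was 5.94%. In whole tissue, more cells of a type and more RNA per cell cannot be told apart.

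**Figure D1:**
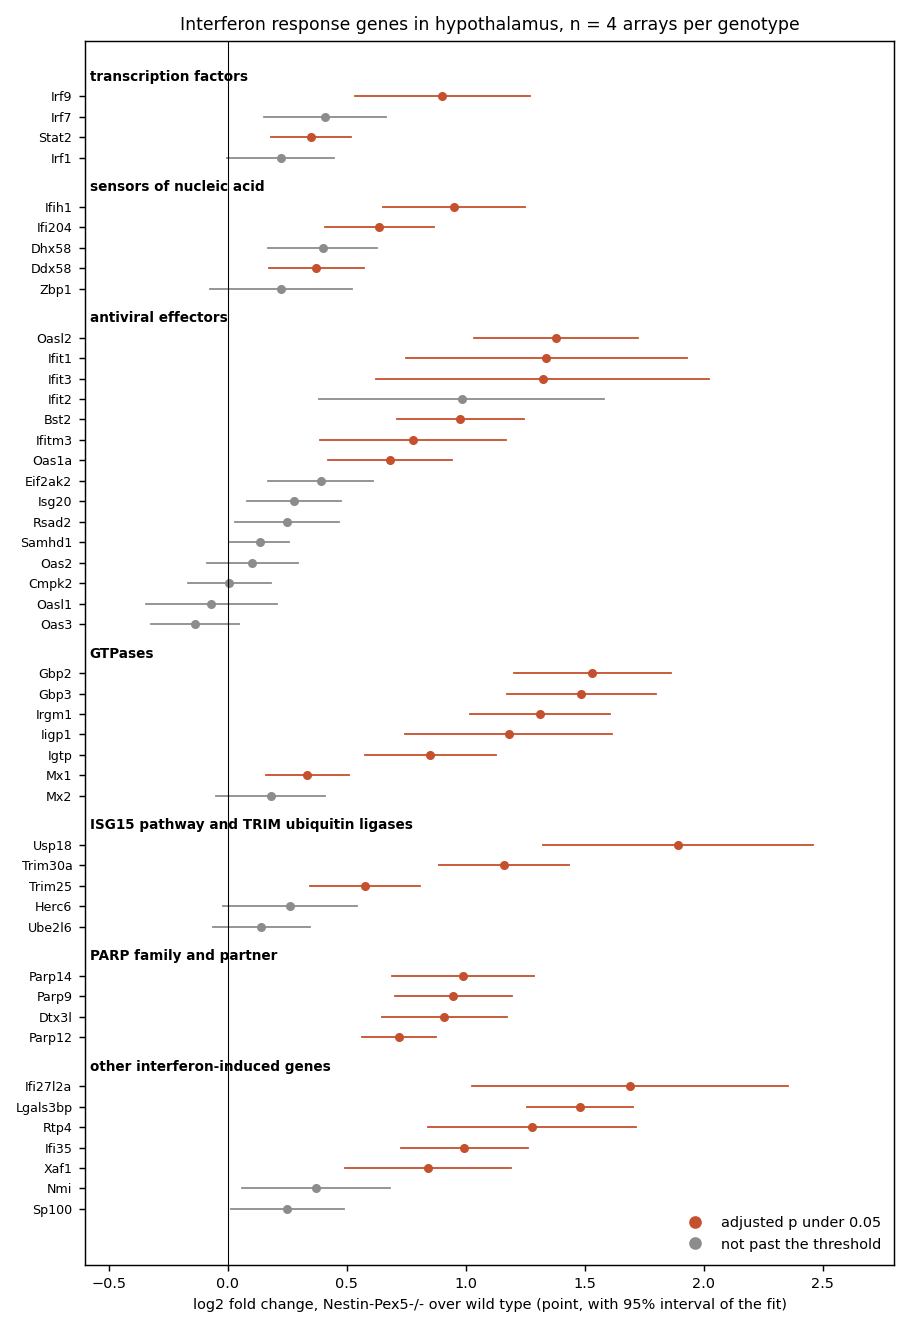
Log2 fold change of each of the 47 measured interferon response genes, Nestin-Pex5-/- over wild type, by role, with the 95% interval of the limma fit (n = 4 arrays per genotype). Orange points passed an adjusted p under 0.05; the 29 of them all lie to the right of 0, from 0.33 in Mx1 to 1.89 in Usp18.

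Not every member passed the test. The GTPases and the PARP family and partner had the largest share of genes that rose, 6 of 7 and 4 of 4, whereas 6 of the 15 antiviral effectors did. The sensors of nucleic acid rose in 3 of 5 cases and the transcription factors in 2 of 4. The median log2 difference was 1.18 for the GTPases, 0.93 for the PARP group, 0.99 for the other interferon-induced genes, 0.58 for the ISG15 and TRIM genes, 0.40 for the sensors, 0.39 for the effectors and 0.38 for the transcription factors. These medians describe the classes, and the differences between classes were not tested.

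The promoters of members are shown because ISRE and GAS are the DNA elements through which interferon acts. RefSeq promoters (GRCm38.p6) were at hand for 37 of the 49 members, and the 250 bases before each start were searched on both strands for the ISRE core (GAAA, any 2 bases, GAAA) and the GAS core (TTC, any 3 bases, GAA), the latter of which reads the same on both strands. A gene was counted when any of its promoters held the core, and matches may overlap each other, since the end of one ISRE core can serve as the start of the next. The ISRE core was found in 13 of the 37 members (35.1%), where 3.46% of 27025 genes and 2.98% of 32851 promoters hold it. It stood in the promoters of 10 of 21 members that rose and of 2 of 14 that did not pass the test. The GAS core was found in 8 of 37 members (21.6%), where 8.13% of genes and 7.02% of promoters hold it, and it stood in 3 of the 21 members that rose and in 5 of the 14 that did not pass. A match is only these letters within this window, and binding of a factor was not measured.

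The stretches printed here hold the 160 bases just upstream of the start, on the strand of the gene and from 5′ to 3′, with each ISRE core in capitals. The start is that of the RefSeq promoter. In Gbp3, Oas1a and Oas3 the annotated gene begins further upstream, so the last bases of these stretches lie within it. In Oas1a these bases include most of the capitals. Capitals longer than one core are overlapping matches, and TTTC at the front of a match marks the core on the opposite strand. The 6 genes printed first rose in Nestin-Pex5-/-, namely the guanylate-binding proteins Gbp2 (chr3:142620503-142620662, plus strand) and Gbp3 (chr3:142559884-142560043, plus strand), the immunity-related GTPases Irgm1 (chr11:48871421-48871580, minus strand) and Igtp (chr11:58199396-58199555, plus strand), the RNA-binding protein Ifit1 (chr19:34640729-34640888, plus strand) and the oligoadenylate synthetase Oas1a (chr5:120907526-120907685, minus strand).
Gbp2: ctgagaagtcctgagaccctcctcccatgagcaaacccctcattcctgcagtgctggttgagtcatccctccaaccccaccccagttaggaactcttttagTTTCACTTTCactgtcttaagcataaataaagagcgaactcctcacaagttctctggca
Gbp3: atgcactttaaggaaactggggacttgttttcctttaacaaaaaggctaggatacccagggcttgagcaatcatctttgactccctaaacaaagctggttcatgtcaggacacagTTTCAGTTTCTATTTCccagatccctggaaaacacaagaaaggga
Irgm1: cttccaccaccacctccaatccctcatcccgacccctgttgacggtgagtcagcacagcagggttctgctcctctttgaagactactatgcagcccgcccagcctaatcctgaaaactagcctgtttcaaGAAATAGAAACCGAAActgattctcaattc
Igtp: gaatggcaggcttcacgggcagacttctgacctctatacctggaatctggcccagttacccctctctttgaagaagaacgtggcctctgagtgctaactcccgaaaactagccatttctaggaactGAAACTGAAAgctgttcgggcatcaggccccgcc
Ifit1: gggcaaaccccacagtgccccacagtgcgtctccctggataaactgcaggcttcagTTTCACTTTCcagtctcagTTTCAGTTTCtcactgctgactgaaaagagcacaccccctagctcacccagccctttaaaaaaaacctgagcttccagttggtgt
Oas1a: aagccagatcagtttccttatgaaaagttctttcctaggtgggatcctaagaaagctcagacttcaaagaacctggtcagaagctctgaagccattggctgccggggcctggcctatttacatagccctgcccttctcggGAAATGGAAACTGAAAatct
Oas3 (chr5:120777660-120777819, minus strand) and Rsad2 (chr12:26456453-26456612, minus strand) are shown as the 2 members that hold the core and did not pass the test.
Oas3: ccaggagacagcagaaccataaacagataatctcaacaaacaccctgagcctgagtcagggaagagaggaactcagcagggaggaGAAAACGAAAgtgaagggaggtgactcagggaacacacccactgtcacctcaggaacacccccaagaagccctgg
Rsad2: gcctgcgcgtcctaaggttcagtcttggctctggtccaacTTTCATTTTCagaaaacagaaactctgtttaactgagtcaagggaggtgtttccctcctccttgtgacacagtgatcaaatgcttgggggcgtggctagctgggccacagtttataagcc
Isg15 (chr4:156200819-156200978, minus strand) is shown for its 3 overlapping cores, the largest number among the members.
Isg15: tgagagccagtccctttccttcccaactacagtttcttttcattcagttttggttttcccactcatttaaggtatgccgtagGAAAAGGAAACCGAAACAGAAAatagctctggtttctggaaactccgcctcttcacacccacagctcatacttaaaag

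**Figure D2:**
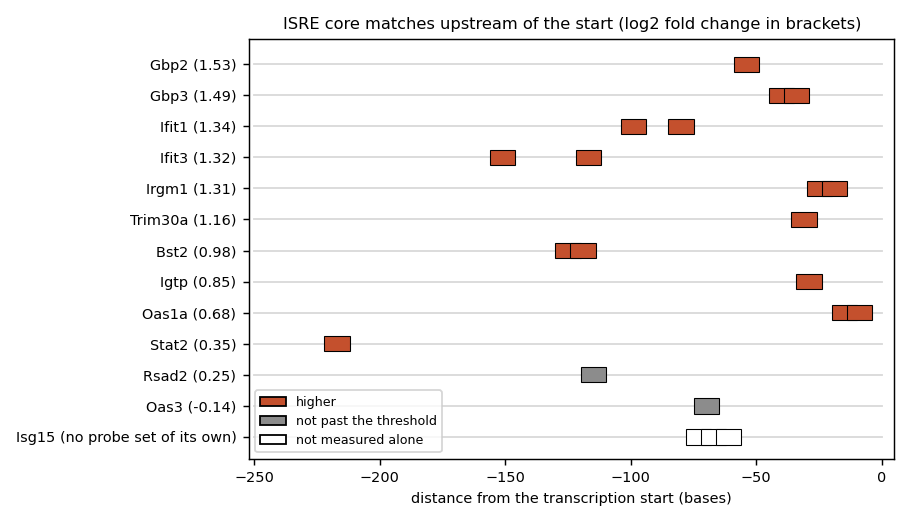
Positions of the ISRE core in the 250 bases upstream of the start for the 13 members that hold it, with distance from the start in bases on the horizontal axis and 1 box per match. Genes are ordered by their log2 fold change (in brackets), and colour gives the result of the test: 10 of the 13 rose, Oas3 and Rsad2 did not pass, and Isg15 had no probe set of its own.

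Among the transcription factors, Irf9 and Stat2, the subunits of ISGF3 named above, were both higher. Irf9 read 7.14, 7.21, 6.71 and 7.58 in the wild type arrays and 7.98, 8.26, 7.87 and 8.13 in the Nestin-Pex5-/- arrays, a 1.87-fold rise (95% interval 1.45 to 2.41, limma adjusted p = 0.0115). Stat2 read 7.30, 7.43, 7.21 and 7.27 in wild type and 7.82, 7.61, 7.55 and 7.64 in Nestin-Pex5-/-, 1.27-fold higher (limma adjusted p = 0.0278). For neither gene did the genotypes overlap. Stat2 missed the threshold when any one of Nestin-Pex5-/- replicates 7, 8 and 10 or wild type replicates 1 and 3 was left out, with adjusted p from 0.0518 to 0.0816, which left 1 of 4 transcription factors called. Irf7, which drives transcription of the interferon alpha genes, differed by 1.33-fold (limma adjusted p = 0.0886), with wild type replicate 4 at 6.51 inside the range of the Nestin-Pex5-/- arrays (6.5 to 6.67). Without this array Irf7 passed, at a log2 difference of 0.52 (limma adjusted p = 0.00568). Irf1 stood at 1.17-fold (limma adjusted p = 0.302) and overlapped between the genotypes.

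The sensors detect foreign or misplaced nucleic acid inside the cell. Ifih1, which encodes the long double-stranded RNA sensor MDA5, read 6.77, 6.51, 6.44 and 7.03 in wild type and 7.44, 7.74, 7.58 and 7.79 in Nestin-Pex5-/-, a 1.93-fold rise (95% interval 1.57 to 2.38, limma adjusted p = 0.0024). Ifi204, a DNA sensor with several close relatives, read 3.45, 3.35, 3.59 and 3.41 in wild type and 3.92, 4.15, 3.92 and 4.35 in Nestin-Pex5-/- (1.55-fold, limma adjusted p = 0.00571). Its values are the dimmest of all members, and the share of them that is background is not known. Ddx58, which encodes the sensor RIG-I for RNA with a free triphosphate end, read 6.78, 6.72, 6.58 and 6.95 in wild type and 6.97, 7.14, 7.19 and 7.22 in Nestin-Pex5-/-. Its 1.29-fold difference passed narrowly (limma adjusted p = 0.047), with 6.95 in wild type replicate 4 next to 6.97 in Nestin-Pex5-/- replicate 7. It did not pass when one of Nestin-Pex5-/- replicates 8 to 10 or wild type replicates 1 to 3 was left out, with adjusted p from 0.104 to 0.144. Dhx58, which encodes the regulator LGP2 of both RNA sensors, differed by 1.32-fold with no overlap between the genotypes (limma adjusted p = 0.0609), and passed without wild type replicate 4 (adjusted p = 0.008). Zbp1, a sensor of Z-form nucleic acid, stood at 1.17-fold (limma adjusted p = 0.444) with wild type replicate 4 above every Nestin-Pex5-/- array. Without replicate 4 it passed at a log2 difference of 0.36 (limma adjusted p = 0.0483), and the class then had all 5 sensors higher.

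The antiviral effectors were divided. Oasl2, an oligoadenylate synthetase-like protein, read 6.28, 6.06, 6.0 and 6.75 in wild type and 7.47, 7.77, 7.64 and 7.72 in Nestin-Pex5-/-, a 2.60-fold rise (95% interval 2.05 to 3.30, limma adjusted p = 0.000516). Bst2, or tetherin, which holds budding virus at the cell surface, read 6.97, 6.52, 6.70 and 7.10 in wild type and 7.76, 7.86, 7.71 and 7.87 in Nestin-Pex5-/- (1.97-fold, limma adjusted p = 0.000921). Both genes had the Nestin-Pex5-/- arrays close together and well above the wild type arrays. The Ifit proteins, which bind viral RNA, varied more. Ifit1 read 6.47, 5.74, 5.47 and 6.60 in wild type and 7.08, 7.18, 7.54 and 7.84 in Nestin-Pex5-/-, 2.53-fold higher (95% interval 1.68 to 3.81, limma adjusted p = 0.0173). Ifit3 read 6.36, 5.75, 5.61 and 6.23 in wild type and 6.58, 6.89, 7.72 and 8.03 in Nestin-Pex5-/-, 2.50-fold higher (95% interval 1.54 to 4.06, limma adjusted p = 0.0426). In both, Nestin-Pex5-/- replicates 9 and 10 were the highest arrays, and the lowest of the Nestin-Pex5-/- arrays was still above the highest of the wild type arrays. Ifit1 did not pass once Nestin-Pex5-/- replicate 9 or 10 or wild type replicate 2 was left out (adjusted p from 0.0574 to 0.0593), and Ifit3 once any array but wild type replicate 4 and Nestin-Pex5-/- replicate 7 was (adjusted p from 0.0591 to 0.127). Ifit2 differed by a similar 1.97-fold, with wild type replicate 1 at 8.27 within the Nestin-Pex5-/- range of 8.12 to 8.85, and did not pass (limma adjusted p = 0.0783). Without wild type replicate 1 it passed at a log2 difference of 1.23 (limma adjusted p = 0.0122).

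The remaining effectors that rose were Oas1a, which makes the oligoadenylate that activates RNase L (1.6-fold, limma adjusted p = 0.0077), and Ifitm3, a membrane protein that blocks virus entry from endosomes (1.72-fold, limma adjusted p = 0.0333). Ifitm3 did not pass when any array other than wild type replicate 4 and Nestin-Pex5-/- replicate 7 was left out, with adjusted p from 0.072 to 0.108. With Nestin-Pex5-/- replicate 9 or 10 or wild type replicate 2 left out, 3 effectors in place of 6 were called. Small differences were measured in Cmpk2, a mitochondrial nucleotide kinase (1.0-fold, 95% interval 0.89 to 1.13, limma adjusted p = 0.979), and in Oas2, another oligoadenylate synthetase (1.07-fold, 95% interval 0.94 to 1.23, limma adjusted p = 0.593). Oas3 read 5.28, 5.35, 5.42 and 5.49 in wild type and 5.27, 5.04, 5.37 and 5.31 in Nestin-Pex5-/- (0.91-fold, limma adjusted p = 0.442), and Oasl1 stood at 0.95-fold (limma adjusted p = 0.819). Neither passed, and the signs of the smallest differences depended on the setting. Scaled to Actb, which moved the median of all genes from -0.033 to -0.16, Cmpk2 and Oas2 were below 0 as well. Cmpk2 was also below 0 when scaled to reference genes, and Oasl1 was above 0 without wild type replicate 4 or Nestin-Pex5-/- replicate 8. Rsad2, or viperin, which makes a chain-terminating nucleotide, stood at 1.19-fold (limma adjusted p = 0.23). Eif2ak2, the RNA-activated kinase PKR, stood at 1.31-fold (limma adjusted p = 0.0577), the exonuclease Isg20 at 1.21-fold (limma adjusted p = 0.133) and Samhd1, which breaks down nucleotides for DNA synthesis, at 1.10-fold (limma adjusted p = 0.269). For these 3 genes every Nestin-Pex5-/- array was above every wild type array although the test was not passed.

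The guanylate-binding proteins and immunity-related GTPases, which attack the membranes around intracellular microbes, gave wide separations between the genotypes. Gbp2 read 7.03, 6.90, 6.35 and 6.93 in wild type and 8.15, 8.47, 8.23 and 8.48 in Nestin-Pex5-/-, a 2.89-fold rise (95% interval 2.30 to 3.63, limma adjusted p = 0.000204). Gbp3 read 6.51, 6.43, 6.34 and 6.68 in wild type and 7.61, 7.89, 8.10 and 8.30 in Nestin-Pex5-/-, a 2.8-fold rise (95% interval 2.25 to 3.48, limma adjusted p = 0.000171). The promoters of both, printed above, hold the ISRE core close to the start. Irgm1, which regulates the other immunity-related GTPases, read 7.84, 7.77, 7.94 and 8.43 in wild type and 9.21, 9.33, 9.36 and 9.31 in Nestin-Pex5-/- (2.48-fold, limma adjusted p = 0.000265). Iigp1, an effector of the same family, read 6.08, 5.62, 5.81 and 6.41 in wild type and 6.74, 7.09, 7.34 and 7.47 in Nestin-Pex5-/- (2.27-fold, limma adjusted p = 0.00636). Irgm1 was almost level over the 4 Nestin-Pex5-/- arrays, whereas Iigp1 and Gbp3 were lowest in replicate 7 and highest in replicate 10. Igtp, also of this family, rose 1.80-fold (limma adjusted p = 0.00282). The dynamin-like Mx proteins moved little: Mx1 rose 1.26-fold (limma adjusted p = 0.0413) and Mx2 stood at 1.13-fold (limma adjusted p = 0.423). Mx1 missed the threshold when 1 of 6 arrays was left out (wild type replicates 1 to 3, Nestin-Pex5-/- replicates 8 to 10), with adjusted p from 0.0572 to 0.123. Many laboratory mouse strains carry defective Mx1 alleles, and which alleles these mice carry was not analysed here.

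**Figure D3:**
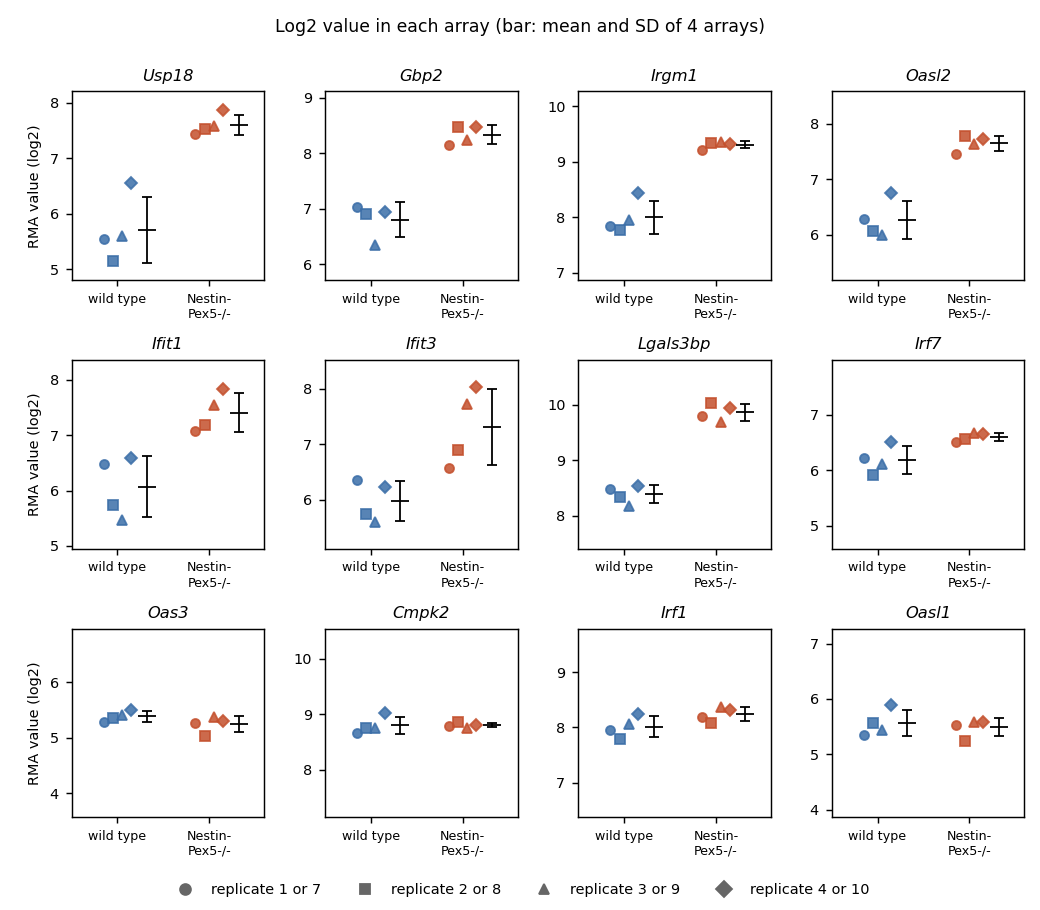
RMA log2 value of 12 members in each array, with 1 point per mouse, and beside the points a bar for the mean and SD per genotype (n = 4). In the upper 7 panels, from Usp18 to Lgals3bp, all Nestin-Pex5-/- arrays lie above all wild type arrays, whereas Irf7, Oas3, Cmpk2, Irf1 and Oasl1 overlap.

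Usp18, the protease that removes ISG15 from proteins and also restrains the type I interferon receptor, had the largest difference of all members. It read 5.55, 5.15, 5.61 and 6.55 in wild type and 7.43, 7.53, 7.59 and 7.87 in Nestin-Pex5-/-, a 3.71-fold rise (95% interval 2.50 to 5.49, limma adjusted p = 0.00175). The wide interval goes with the wild type spread, in which replicate 4 was far above the other 3 arrays. Trim30a, a TRIM protein of immune cells, read 5.86, 6.01, 6.07 and 6.41 in wild type and 7.26, 7.47, 7.17 and 7.10 in Nestin-Pex5-/- (2.23-fold, limma adjusted p = 0.000358). Trim25, the ubiquitin ligase that acts on RIG-I, read 7.95, 7.88, 7.46 and 7.81 in wild type and 8.25, 8.43, 8.40 and 8.32 in Nestin-Pex5-/- (1.49-fold, limma adjusted p = 0.0101). The genotypes did not overlap for any of these 3 genes. Of the conjugation enzymes of the ISG15 pathway, Ube2l6, which carries ISG15, stood at 1.10-fold (limma adjusted p = 0.483) and Herc6, its ligase in the mouse, at 1.20-fold on its brightest probe set (limma adjusted p = 0.332). Neither passed on that probe set, but the mean of the 4 Herc6 probe sets did, at a log2 difference of 0.62 (limma adjusted p = 0.000701). For ISG15 itself only the probe set shared with Gm9706 can be given, which read 7.06, 6.83, 6.80 and 7.47 in wild type and 7.74, 7.99, 8.11 and 8.22 in Nestin-Pex5-/-, 1.97-fold higher (limma adjusted p = 0.0116 over all probe sets).

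All 4 genes of the PARP group rose with no overlap between the genotypes. Parp9 and Dtx3l encode partners in a complex that ubiquitinates proteins, and Parp12 and Parp14 encode enzymes that attach single ADP-ribose units. Parp9 read 6.68, 6.56, 6.70 and 6.99 in wild type and 7.44, 7.81, 7.71 and 7.76 in Nestin-Pex5-/- (1.93-fold, limma adjusted p = 0.000656), and Dtx3l read 7.34, 7.47, 7.54 and 7.84 and 8.44, 8.41, 8.29 and 8.70 (1.88-fold, limma adjusted p = 0.00137). The partners thus rose by similar amounts. Parp14 read 5.47, 5.48, 5.78 and 6.08 in wild type and 6.54, 6.65, 6.79 and 6.78 in Nestin-Pex5-/- (1.98-fold, limma adjusted p = 0.00178), and Parp12 read 7.89, 7.79, 7.62 and 7.75 and 8.51, 8.44, 8.55 and 8.42 (1.64-fold, limma adjusted p = 0.000207). Parp12 had the smallest standard error among the 29 genes, 0.069 on the log2 scale, and Ifit3 the largest, 0.31.

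Of the other interferon-induced genes, 5 of 7 rose. Lgals3bp, a secreted glycoprotein that binds galectins, read 8.49, 8.33, 8.18 and 8.54 in wild type and 9.79, 10.03, 9.70 and 9.94 in Nestin-Pex5-/-, a 2.79-fold rise (95% interval 2.39 to 3.26), with the smallest adjusted p of the members (1.61e-05, limma). Ifi27l2a, a small hydrophobic protein of the Ifi27 family, read 6.31, 7.10, 5.58 and 6.88 in wild type and 7.75, 8.33, 8.18 and 8.36 in Nestin-Pex5-/- (3.22-fold, 95% interval 2.03 to 5.11, limma adjusted p = 0.00928). It had the widest spread among the wild type arrays (SD 0.68, n = 4). Rtp4, which helps receptors reach the cell surface, read 7.5, 7.07, 6.96 and 7.98 in wild type and 8.54, 8.79, 8.65 and 8.63 in Nestin-Pex5-/- (2.42-fold, limma adjusted p = 0.00413). Ifi35 read 7.38, 7.09, 7.07 and 7.63 and 8.20, 8.37, 8.31 and 8.25 (1.99-fold, limma adjusted p = 0.000878), and its binding partner Nmi stood at 1.29-fold (limma adjusted p = 0.208) with no overlap of the arrays. Xaf1, which counters an inhibitor of apoptosis, rose 1.79-fold (limma adjusted p = 0.0122). Sp100, a protein of nuclear bodies, stood at 1.19-fold (limma adjusted p = 0.275), and passed without wild type replicate 4 at a log2 difference of 0.35 (adjusted p = 0.0289).

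The level of the members differed between mice of one genotype as well. Averaged over the 47 members and set against the wild type mean, wild type replicates 1 to 4 lay at 0.0028, -0.11, -0.16 and 0.26 on the log2 scale, and Nestin-Pex5-/- replicates 7 to 10 at 0.60, 0.71, 0.75 and 0.84. The lowest Nestin-Pex5-/- mouse was thus above the highest wild type mouse. Wild type replicate 4 was raised in all 7 classes, from 0.22 in the effectors to 0.35 in the ISG15 and TRIM genes. Among the Nestin-Pex5-/- mice, replicates 9 and 10 were both above 7 and 8 in 18 of the 47 members, the Ifit genes and Ifitm3 among them, whereas 24.3% of all genes showed this order. The opposite order was seen in 2 members, and its share over all genes was not examined. The mean of the effectors was 0.41 and 0.45 in replicates 7 and 8 and 0.63 and 0.75 in replicates 9 and 10, while the transcription factors stayed between 0.44 and 0.52. The SD of a member was on the median 0.23 in wild type and 0.14 in Nestin-Pex5-/-, and was larger in Nestin-Pex5-/- for 9 of the 47 genes. The SDs of all genes were not set beside these. Replicate 4 was the highest wild type array in 37 of the 47 members and in 52.2% of all genes.

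**Figure D4:**
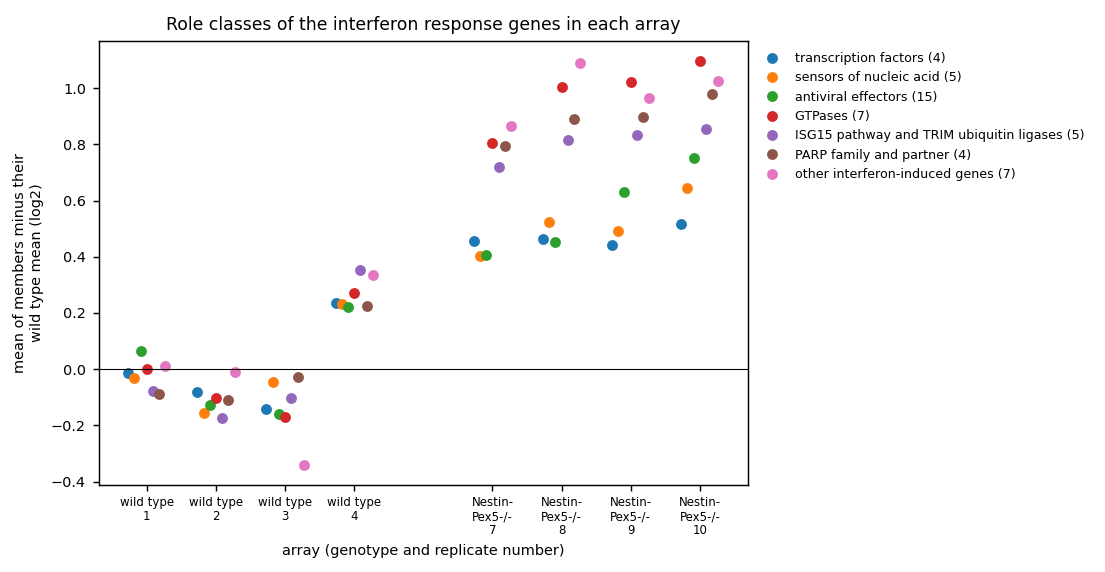
Mean of the members of each role class in each array, minus the mean of the wild type arrays, on a log2 scale (number of genes in brackets, arrays labelled by genotype and replicate number). The 7 classes lie between 0.22 and 0.35 in wild type replicate 4 and between 0.40 and 1.10 in the Nestin-Pex5-/- arrays.

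Genes of one family were also set against each other. In 15 pairs within families, chosen after the values were seen, the difference between both log2 values was taken in each array, and these differences are given as a description with no test. Oasl2 passed and Oasl1 did not, and the difference of their log2 changes was 1.45. Oasl1 minus Oasl2 ran from -0.93 to -0.50 in wild type and from -2.53 to -1.93 in Nestin-Pex5-/-. Oas1a changed by 0.58 more than Oas2 and by 0.82 more than Oas3, Oas2 by 0.24 more than Oas3, and Irgm1 by 0.46 more than Igtp. In these 5 pairs the genotypes did not overlap. The other 10 pairs overlapped, among them Gbp2 and Gbp3, whose changes differed by 0.046. How many gene pairs over the whole array separate the genotypes in this way was not examined. Oas3 and Oasl1 read below the array medians on every array, and how much of their value is background is not known. In the genome, 6 pairs of members are direct neighbours among protein-coding genes (GRCm38.p6). Dtx3l lies between Parp14 and Parp9, and all 3 rose. Rsad2 lies beside Cmpk2 and Oas2 beside Oas3, and none of these 4 passed, whereas Oasl2 beside Oasl1 and Ifit3 beside Ifit2 are pairs with 1 gene called.

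The genes that lead to and from interferon were taken from a second list of 55 genes, of which 44 were measured. On this list limma called 12 higher (27.3%) and 0 lower (18 and 1 at an unadjusted p under 0.05), with a median log2 difference of 0.077. Over all genes limma called 3.98% higher and 0.791% lower, and 8.85% higher at an unadjusted p under 0.05. None of the 10 measured interferon genes passed, and the 1 that was lower at an unadjusted p under 0.05 was Ifna2 (0.88-fold, limma adjusted p = 0.278), named after its value was seen. The brightest of them, Ifna1 and Ifnz, read 5.66 ± 0.23 and 5.51 ± 0.13 in wild type (mean ± SD, n = 4) and 5.55 ± 0.26 and 5.51 ± 0.29 in Nestin-Pex5-/-. All 10 ligand probe sets lay below the array medians on every array, and how much of their value is background is not known. Of the receptors, 4 of 6 rose: Ifnar2 1.36-fold (limma adjusted p = 0.00467), Ifngr1 1.34-fold (0.00118), Ifngr2 1.34-fold (0.00673) and Il10rb, a shared subunit of the lambda interferon receptor, 1.5-fold (0.0185). Ifnar1 stood at 0.99-fold (limma adjusted p = 0.952). Il10rb missed the threshold with Nestin-Pex5-/- replicate 8 or 9 or wild type replicate 2 left out, with adjusted p from 0.0507 to 0.0568.

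Of the kinases and inhibitors, 1 of 8 rose, namely Socs3, which restrains cytokine receptors (1.69-fold, limma adjusted p = 0.00556). Its other 2 probe sets stood at 4.21-fold and 3.93-fold. Ptpn6, a phosphatase of blood cells, did not pass on its brightest probe set (1.39-fold) but stood at 6.13-fold on the other (adjusted p = 1.12e-05, limma over all probe sets). Jak1 and Tyk2 stood at 1.01-fold and 1.07-fold. In the routes that induce interferon, 6 of 13 genes rose. Irf8, a factor of myeloid cells, read 6.17, 5.96, 5.92 and 6.32 in wild type and 8.28, 8.56, 8.45 and 8.60 in Nestin-Pex5-/-, a 5.19-fold rise (limma adjusted p = 1.15e-06). The endosomal receptors of single- and double-stranded RNA, Tlr7 and Tlr3, rose 1.98-fold (limma adjusted p = 1.71e-05) and 1.67-fold (limma adjusted p = 0.00372), and Irf5, a factor downstream of the former, 1.78-fold (limma adjusted p = 0.00215). The probe sets of these genes did not all move alike. Irf5 stood at 0.96-fold on its other probe set and missed the threshold with the mean of both (limma adjusted p = 0.0532), and Tlr7 stood at 1.08-fold and 1.05-fold on 2 dimmer ones. Irf8 stood at 3.35-fold on its other probe set. Cxcl10, the chemokine best known as an interferon target, read 5.52, 5.06, 5.29 and 5.58 in wild type and 7.60, 8.39, 7.79 and 8.37 in Nestin-Pex5-/-. Its 6.39-fold rise (95% interval 4.74 to 8.62, limma adjusted p = 2.47e-05) was larger than that of any of the 47 members. Its relative Cxcl9 stood at 1.04-fold (limma adjusted p = 0.78). The values of Cxcl9 ran from 4.71 to 5.12, below the array medians, and how much of them is background is not known. Cxcl11, the other chemokine listed, stood at 1.26-fold (limma adjusted p = 0.115) with no overlap between the genotypes. The part of type I or type II interferon in these changes was not tested. None of the 4 measured genes that edit or break down the body's own nucleic acid passed (limma, 0 also at an unadjusted p under 0.05), and the brightest, Adar and Rnaseh2c, stood at 0.96-fold and 1.02-fold.

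**Figure D5:**
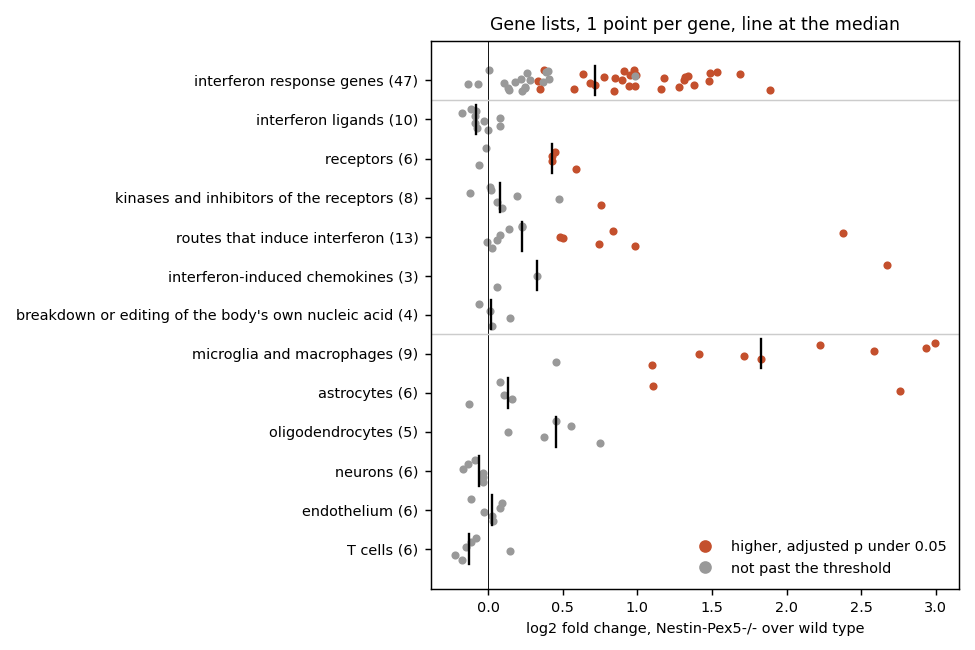
Log2 fold change, Nestin-Pex5-/- over wild type, of each gene of the interferon response, of the other interferon pathway lists and of cell type markers, with 1 point per gene, the number measured in brackets and a line at each list's median. Orange points passed an adjusted p under 0.05. The medians are 0.72 for the interferon response genes and 1.83 for the microglia and macrophage markers.

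Markers of microglia and macrophages were also higher in Nestin-Pex5-/-. Of 9 measured markers 8 rose, with a median log2 difference of 1.83, and their mean level ran from 7.97 to 8.18 over the wild type arrays and from 9.80 to 10.15 over the Nestin-Pex5-/- arrays. P2ry12, a receptor of resting microglia, was the exception at 1.37-fold (limma adjusted p = 0.0554). Among the 6 astrocyte markers, Gfap, the filament protein of reactive astrocytes, rose 6.76-fold (limma adjusted p = 8.40e-06) and the water channel gene Aqp4 2.15-fold (limma adjusted p = 0.00222), and the other 4 did not pass. None of the 6 neuronal, 6 endothelial, 5 oligodendrocyte, 6 T cell or 5 neutrophil and monocyte markers passed (limma). At an unadjusted p under 0.05 all 5 oligodendrocyte markers were higher, with a median log2 difference of 0.45, and 1 neuronal and 2 neutrophil and monocyte markers were lower. The T cell markers Cd3e, Cd3d, Cd3g, Cd2, Cd4 and Cd8a averaged 5.59 to 5.76 in wild type and 5.41 to 5.71 in Nestin-Pex5-/-. Of 5 markers of plasmacytoid dendritic cells, the main source of interferon alpha in blood, Siglech rose 1.75-fold (limma adjusted p = 0.00162), and of 4 B cell markers Cd22 rose 1.53-fold (limma adjusted p = 0.00387). Both genes are also expressed by microglia. Among the Nestin-Pex5-/- mice, the microglial mean and the mean of the interferon response genes were both lowest in replicate 7. The former was highest in replicate 8 and the latter in replicate 10. The astrocyte mean was 11.90, 11.97, 12.04 and 12.11 in replicates 7 to 10, the same order as the interferon response genes. The endothelial and plasmacytoid dendritic cell means also had this order, and the means of the other marker lists did not. In wild type replicate 4 the microglial mean was 8.18, and in replicates 1 to 3 it ran from 7.97 to 8.11. The part of these cells in the result was not tested.

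Where a member had several probe sets, the brightest stood for the gene, and this choice mattered for some. Of the 19 such members, 5 had probe sets whose fold changes differed by more than 1.5 times. Trim30a ran from 2.23-fold to 4.29-fold, Rtp4 from 1.10-fold to 2.42-fold, Parp14 from 1.05-fold to 1.98-fold, Xaf1 from 1.04-fold to 1.79-fold and Ifi35 from 1.32-fold to 1.99-fold. In Trim30a it was the dimmer probe set that changed more, whereas in the other 4 it was the brightest. A further 3 members did not pass on their brightest probe set but had another that did (limma, adjusted over all probe sets). Herc6 had 3 further probe sets at 1.59-fold to 1.79-fold (adjusted p from 0.00399 to 0.0146), Eif2ak2 had 2 at 1.55-fold and 1.73-fold (adjusted p = 0.00482 and 0.0214), and Rsad2 had 1 at 1.35-fold (adjusted p = 0.0455). Under the same adjustment over all probe sets, 5 of the 29 members that rose missed the threshold on their brightest probe set: Stat2 (adjusted p = 0.0526), Ifitm3 (0.0626), Mx1 (0.0739), Ifit3 (0.0778) and Ddx58 (0.0834). Which transcripts of these genes each probe set reads was not examined. Ifit3, Oas1a, Ifi204 and Trim30a have close copies in the mouse genome, so their values may include those copies. Gbp2 and Ifi35 are read by probe sets of the types _x_at and _s_at, which can bind related transcripts. With such probe sets left out Gbp2 still passed, whereas Ifi35 did not (limma adjusted p = 0.0826).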

How the data were processed

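RNA of 8 hypothalamus samples was measured on Affymetrix mouse genome arrays. The deposited values are log2 intensities that the authors made with RMA, which corrects the background, quantile-normalizes and summarises probes. The software and probe set definition are not given in the sources used here. No further normalization or filter was applied.

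Of 45101 probe sets, 34958 are paired with 1 gene by the platform annotation, 932 with several and 9211 with none. The brightest probe set paired with 1 gene stood for each of 18194 genes. Genotypes were compared with limma 3.58.1 (R 4.3.3; lmFit, eBayes, two-sided), with Benjamini-Hochberg adjustment across the 18194 genes and a call at 0.05. The script was tested on simulated data. Promoters are from RefSeq, and figures were drawn with matplotlib 3.10.9 (Python 3.11.15).

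Values in every array were given for up to 4 called members of each role with the largest change, all members that did not pass were named, and pathway genes were named by the same limit of 4 per list, or the 2 brightest where none passed. Other genes were named after their values were seen. The members and lists were chosen with earlier results of these data known. Alternatives covered probe set choice, scaling, variance model, array weights, test, threshold and leaving out each array.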

Additional observations from a re-analysis of the deposited data

Results flagged for a closer look

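In 3 of the 122 groups of 4 arrays that were examined, 1 array lay far from the other 3, and chance gives this in about 1 group of 20. Oasl1 read 5.25 in Nestin-Pex5-/- replicate 8 and 5.53 to 5.59 in the other arrays of that genotype. Eif2ak2 read 7.10 in wild type replicate 4 and 7.33 to 7.37 in the other wild type arrays. Ifna1 read 5.32 in wild type replicate 2 and 5.76 to 5.79 in the others.

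Probe sets that the annotation pairs with several genes were left out of the comparisons, and 3 of them, each including a member, were higher in Nestin-Pex5-/-. The probe set of Isg15 and Gm9706 was 1.97-fold higher (limma adjusted p = 0.0116). The probe set of Ifi204 and its relatives Mndal, Ifi211 and Ifi205 was 2.16-fold higher (limma adjusted p = 0.00641), and that of Trim30a and Trim30d was 2.07-fold higher (limma adjusted p = 0.0026). Which of the genes on each probe set changed cannot be told apart.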

How the results depend on the processing

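No paired analysis was possible because the genotypes share no replicate numbers (1 to 4 and 7 to 10). Under 18 settings, 15 of the 29 members that rose passed wherever they were measured, 14 missed the threshold under at least 1 setting, and 10 of the 18 others passed under at least 1. Each of these 10 passed with array weights, a setting in which 7.43% of all genes were higher, against 3.98% in the main fit. Leaving out each array in turn gave 23 to 33 members higher and 0 lower, a median log2 difference of 0.68 to 0.79, and 10 to 14 pathway genes higher. Over all genes, 2.98% to 5.94% were higher in these fits. By class the same fits gave 1 to 3 transcription factors, 2 to 5 sensors, 3 to 7 effectors, 5 to 6 GTPases and 5 to 6 other interferon-induced genes.

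With each gene's own variance (Student's test) 16 members were higher, with 0 transcription factors, 2 effectors and 2 other interferon-induced genes among them, and 2.68% of all genes were higher. With array weights 39 members were higher, with 4 transcription factors, 5 sensors and 10 effectors, and over all genes 1351 were higher and 699 lower. At an adjusted p under 0.01, 0 transcription factors and 3 effectors passed, and 2.57% of all genes were higher. Without probe sets ending in _s_at, _x_at and _a_at, 36 members were measured, Irf1, Irf7 and Irf9 not among them, and 1 transcription factor passed. Without probe sets below the median level, 30 were measured, Usp18, Trim30a and Ube2l6 not among them, and 1 ISG15 or TRIM gene passed. Over all genes, 3.64% were higher in the former of these 2 settings and 5.36% in the latter. Scaled to Actb, 1 transcription factor rose and 1 pathway gene, Ifna2, fell, and over all genes 540 were higher and 1088 lower, against 724 and 144 as deposited.

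Signs changed only in genes that did not pass. Scaled to Actb, the log2 difference was -0.025 for Oas2, -0.12 for Cmpk2, -0.13 for Ifnz and -0.10 for Rnaseh2c. Scaled to reference genes, it was -0.037 for Cmpk2, -0.043 for Ifnz and -0.017 for Rnaseh2c. With the mean of a gene's probe sets it was -0.014 for Cmpk2, 0.034 for Adar and -0.0018 for Rnaseh2c, and quantile-normalized again it was -0.013 for Cmpk2. With array weights it was 0.059 for Oasl1, 0.037 for Ifna1 and -0.016 for Ifnz. Leaving out 1 array, it ran from -0.038 to 0.078 for Cmpk2, from -0.12 to 0.11 for Ifnz, from -0.016 to 0.080 for Rnaseh2c and from -0.14 to 0.040 for Oasl1. The cause of these changes was not tested. Background and signal cannot be separated in the deposited values, and 17 of the 47 members lay below the median probe set level.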
